A study of Mus musculus with 4 samples.

Results

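Glycerol, glyceroneogenesis and pyruvate switch enzymes of mouse fat were examined through 10 genes: Pcx, Pck1, Pck2, Gpd1, Gpd2, Aqp7, Pdk1, Pdk2, Pdk3 and Pdk4. The genes were taken by symbol from the array annotation, and they are 10 of the 18194 genes measured and 27 of the 45101 probe sets. Each gene is given by its brightest probe set over 4 arrays, and its other probe sets are given beside it in the text or in the plot of all probe sets. Total RNA came from the epididymal fat pad, the visceral fat beside the testis, of C57Bl/6J mice put on their diets at 9 weeks of age and kept on them for 21 weeks. Both diets were high in fat, at 60% of energy. The control diet, called standard here, held 0.4% calcium, and the other held 1.8% calcium together with whey protein isolate, so that calcium and whey protein changed together and cannot be told apart. Of 10 mice fed each diet, 2 were profiled on Affymetrix Mouse Genome arrays. By their labels, 2 arrays belong to the high-calcium diet and 1 to the standard diet. The 1 remaining array has labels that do not settle its diet. The stated number of mice would make it a second standard array, whereas the wording of its title recurs in the source label of high-calcium replicate 2. It enters no comparison, and its values are given as those of the array of open diet.

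Fat cells store fatty acids as triglyceride, and the glycerol backbone has to be supplied as glycerol 3-phosphate. White fat cells make much of it from pyruvate by glyceroneogenesis: pyruvate carboxylase forms oxaloacetate, phosphoenolpyruvate carboxykinase turns that into phosphoenolpyruvate, and glycerol-3-phosphate dehydrogenase reduces the dihydroxyacetone phosphate that follows. Pyruvate is kept available for this route when pyruvate dehydrogenase kinases switch off the pyruvate dehydrogenase complex, and glycerol released by lipolysis leaves the fat cell through the channel aquaporin 7.

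Values are log2 of the deposited linear signal, a scale that does not allow levels of different probe sets to be set against each other. The median log2 signal was -3.38 on high-calcium replicate 1 and between -4.09 and -3.99 on the other 3 arrays, and a signal above the median of its array was taken as above background. All 10 genes were above background on all 4 arrays. Adipocyte markers were strong, with all 7 of 7 measured genes above background on every array and summed linear signals of 143 and 132 on the high-calcium arrays, 125 on the standard array and 121 on the array of open diet. Macrophage markers were also all above background. Their sums were 35.0 and 57.0 on the high-calcium arrays and 53.5 on the standard array. Replicate 1 stood apart in smooth muscle markers, with a summed signal of 60.6 against 7.13 to 9.99 on the other 3 arrays, and all 6 of these genes above background. It also stood apart in B-cell markers, at 2.41 against 0.23 to 0.44 on the other 3 arrays. The standard array had the highest sum of endothelial markers, 6.82 against 3.98 to 4.56, and of duct epithelium markers, 8.99 against 6.07, 1.35 and 1.87. Of the 7 duct markers, however, Lcn2, Calml4 and Adgrg2 were highest on the standard array, whereas Cdh1, Krt18, Krt8 and Epcam were highest on replicate 1, so that the median duct marker lay 0.77 above the standard array there. Mesothelium markers, all 5 above background, were lowest in sum on the standard array, at 1.45 against 4.42 on replicate 1, 1.63 on replicate 2 and 1.77 on the array of open diet. Brown fat markers, 4 of 5 above background on all 4 arrays, were highest in sum on the standard array. They summed to 2.38 there, 1.21 on replicate 1, 1.64 on replicate 2 and 1.67 on the array of open diet. Their median lay at -1.02, -0.91 and -0.99 from the standard array on these 3 arrays. In such bulk tissue, fewer cells of a type and less RNA per cell cannot be told apart.

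Between the diets, 4 of the 10 genes lay above the standard array on both high-calcium arrays: Pck1, Pdk2, Pdk3 and Pdk4. For comparison, 38.6% of all genes and 35.5% of the 10610 genes above background on the 3 labelled arrays did so. Another 3, Pcx, Aqp7 and Pdk1, lay below it on both arrays, as did 23.9% of all genes and 26.8% of those above background. Pck2, Gpd1 and Gpd2 lay on opposite sides of the standard array on the 2 high-calcium arrays. Both shares are near the background and carry no result about the set as a whole. The standard array was the lowest of all 4 arrays for 4 of the 10 genes, against 25.8% of all genes and 22.6% of those above background, and the highest for 1, against 18.1% and 19.5%. Its median log2 difference was 0.074, against 0.079 over all genes and 0.034 over genes above background. No gene passed the test: limma called 0 of the 10 and 0% of all genes at an adjusted p under 0.05, the adjusted p of each of the 10 being 0.9999. At an unadjusted p under 0.05 there were 0 of the 10 and 898 of all genes. Of the other settings, median-centred arrays called 0.528% of all genes and trend and robust estimation 0.033%, with 0 of the 10 among either. The fit had 1 residual degree of freedom, the single standard array being assumed to vary like the high-calcium pair.

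**Figure D1:**
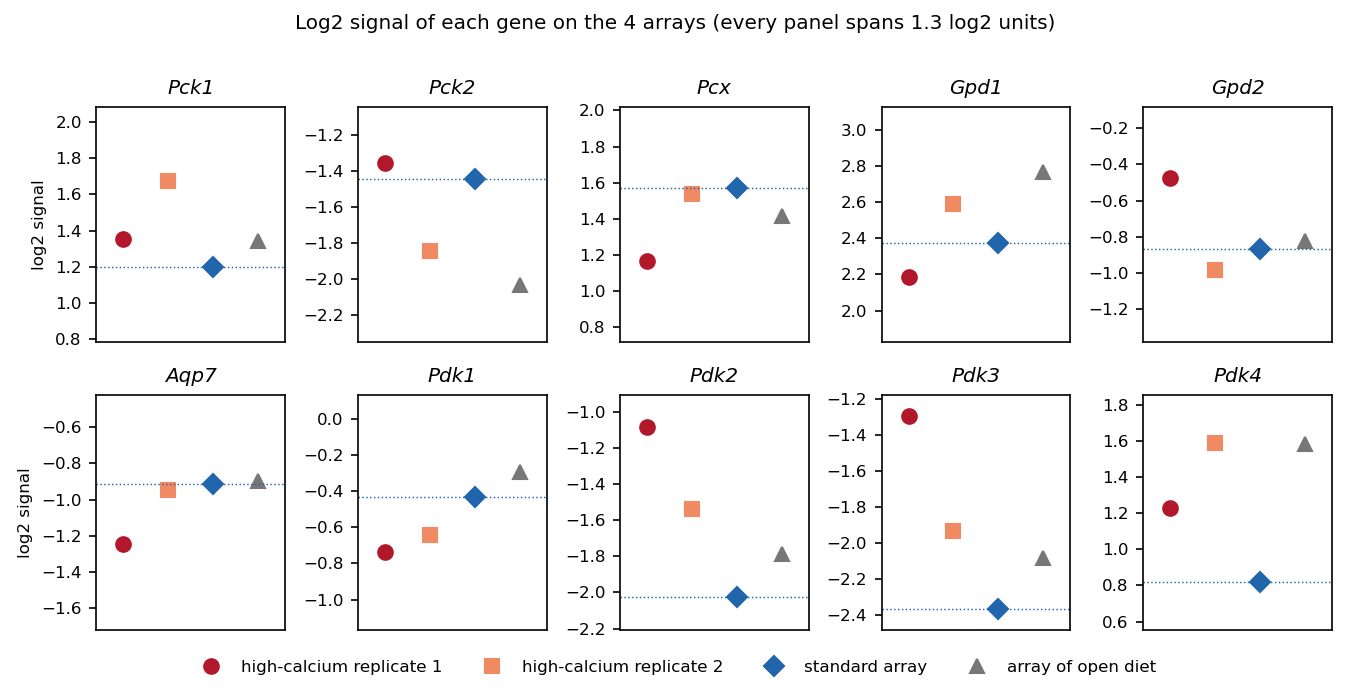
Log2 signal (y axis) of the chosen probe set of each gene on the 4 arrays, 1 symbol per array, with a dotted line at the standard array; every panel spans the same 1.3 log2 units. The standard array is the lowest of the 4 for Pck1, Pdk2, Pdk3 and Pdk4 and the highest for Pcx.

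Pyruvate carboxylase, Pcx, the mitochondrial enzyme that feeds the route with oxaloacetate, had log2 signals of 1.17 and 1.54 on the high-calcium arrays, 1.57 on the standard array and 1.42 on the array of open diet. The standard array was highest, but replicate 2 was only 0.033 below it. The difference was -0.22 (SE 0.38, 95% interval -1.63 to 1.19), with a spread between the high-calcium arrays of 0.26 (SD, n = 2). Pcx has 5 probe sets, of which 4 were above background on the 3 labelled arrays, and all 5 were lower on both high-calcium arrays than on the standard array. Their differences ran from -0.15 to -0.24. The 5 probe sets read 1 transcript population in the same RNA, so they repeat the measurement and not the animals. Among them are the control probe sets that Affymetrix placed along the Pcx transcript. Their log2 ratio of 3′ over 5′ signal, which grows as RNA is shortened, was 4.34 and 4.14 on the high-calcium arrays, 4.22 on the standard array and 3.89 on the array of open diet. The standard array thus lay between the high-calcium arrays in this ratio. The 5′ probe set was under background on replicate 1, at -3.57 against an array median of -3.38, so the ratio does not firmly rank the arrays.

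Pck1, the cytosolic phosphoenolpyruvate carboxykinase and the best known control point of glyceroneogenesis in fat, had log2 signals of 1.35 and 1.67 on the high-calcium arrays, 1.20 on the standard array and 1.34 on the array of open diet. The standard array was the lowest of the 4, and replicate 1 and the array of open diet were almost level. The difference was 0.32 (SE 0.36, 95% interval -1.04 to 1.67), which is 1.11-fold on replicate 1 and 1.39-fold on replicate 2. The gap between the high-calcium arrays, 0.32, was as large as the difference between the diets, which rests on 1 standard array. A second probe set above background ran the same way, with differences of 0.078 and 0.17 and a larger one, 0.42, on the array of open diet. The third, under background on all 4 arrays, lay at -0.86 and -2.51, and through it the mean of all Pck1 probe sets turned to -0.42. On arrays centred on their medians the Pck1 difference was -0.0011, with -0.47 on replicate 1 and 0.47 on replicate 2.

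The promoter of Pck1 is shown because it is the textbook hormone-regulated promoter of this route and because Pck1 and Pdk4, another gene known for hormonal regulation, were both lowest on the standard array. The 250 bases before the annotated start are from RefSeq on build GRCm38.p6, at chr2:173152823-173153072 on the plus strand, 5′ to 3′. Capitals mark the single match found, to the cAMP response element in the form TTACGTCA, at bases 93 to 86 before the start.

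Pck1: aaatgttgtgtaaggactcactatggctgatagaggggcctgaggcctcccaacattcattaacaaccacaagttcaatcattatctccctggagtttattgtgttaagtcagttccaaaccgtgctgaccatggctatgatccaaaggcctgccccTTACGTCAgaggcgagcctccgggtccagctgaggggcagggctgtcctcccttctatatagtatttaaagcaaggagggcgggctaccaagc

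Windows of this kind were given for 9 of the 10 genes, and Gpd1 had none. Searched on both strands, TTACGTCA stands in 0.447% of 32851 windows and, among the 10 genes, in that of Pck1 alone. The full element TGACGTCA, present in 1.55% of windows, was found in 0 of them. The paired nuclear receptor site, AGGTCA repeated after 1 base, bound by PPAR with RXR and present in 0.0335% of windows, was also found in 0, as were the forkhead core TGTTTAC (3.17% of windows) and the TATA box TATAAA (12.4%). The single element AGGTCA, which is contained in the paired site, stands in 14% of windows and among these genes in that of Aqp7. AGAACA, one arm of the glucocorticoid receptor site, stands in 16.1% of windows and among these genes in those of Aqp7 and Pdk1, and the E-box CACGTG stands in 6.02% and in those of Pcx and Pdk2. A match is only a run of letters, and a missing match says nothing of sites outside these windows.

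Pck2, the mitochondrial form of the same enzyme, had log2 signals of -1.36 and -1.85 on the high-calcium arrays, -1.45 on the standard array and -2.03 on the array of open diet. The standard array lay between the high-calcium arrays, and the difference was -0.16 (SE 0.42, 95% interval -1.71 to 1.40). Its other probe set, above background on replicate 2 only, was at -3.39 and -3.74 on the high-calcium arrays, -4.99 on the standard array and -4.31 on the array of open diet. The 2 probe sets of Pck2 thus disagreed in direction, and the value rested on the choice between them, the other one giving 1.42. The chosen probe set has the suffix that marks probes shared by several transcripts of the same gene. The shift of Pck1 relative to Pck2 from the standard array was 0.069 on replicate 1 and 0.88 on replicate 2, and 0.22 and 0.85 after quantile normalization.

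Gpd1, the cytosolic glycerol-3-phosphate dehydrogenase that makes the glycerol backbone, had log2 signals of 2.19 and 2.59 on the high-calcium arrays, 2.38 on the standard array and 2.77 on the array of open diet. The standard array again lay between the high-calcium arrays. The difference was 0.013 (SE 0.39, 95% interval -1.43 to 1.46). A second probe set gave the same order on the 3 labelled arrays, at 0.28, 0.63 and 0.56. The third, much dimmer and with a suffix that marks possible cross-matching, went its own way: it lay above the standard array by 1.06 and 1.77 and was 0.42 below it on the array of open diet. That is the widest disagreement among probe sets above background for any of the 10 genes. The fourth, under background on all 4 arrays, lay at 2.79 and -0.20.

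Gpd2, the mitochondrial enzyme that reoxidises glycerol 3-phosphate and passes the electrons to the respiratory chain, had log2 signals of -0.48 and -0.99 on the high-calcium arrays, -0.87 on the standard array and -0.82 on the array of open diet. Replicate 1 stood above the other 3 arrays, which were close together. The difference was 0.14 (SE 0.43, 95% interval -1.45 to 1.72), and without replicate 1 it was -0.12. Its second probe set above background lay above the standard array by 0.52 and 0.11. The other 2, under background on all 3 labelled arrays, lay at 1.02 and -0.17 and at -0.24 and 0.87. Gpd1 relative to Gpd2 was -0.58 on replicate 1 and 0.33 on replicate 2, opposite in sign on the 2 arrays.

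Aqp7, the aquaglyceroporin through which glycerol leaves fat cells, had log2 signals of -1.25 and -0.94 on the high-calcium arrays, -0.91 on the standard array and -0.89 on the array of open diet. Replicate 1 was low and the other 3 arrays were close together. The difference was -0.18 (SE 0.36, 95% interval -1.52 to 1.15). This chosen probe set has the suffix that marks possible cross-matching. The second Aqp7 probe set, without such a suffix, gave a difference of -0.32. It ordered the high-calcium arrays the other way, with differences of -0.18 on replicate 1 and -0.45 on replicate 2. Both probe sets were lower on both high-calcium arrays. Aqp7 is also known from capillary endothelium and from the testis. Endothelial markers summed to 4.56 and 3.98 on the high-calcium arrays, 6.82 on the standard array and 4.02 on the array of open diet. On the array of open diet Aqp7 lay 0.018 above the standard array. Of 6 germ cell markers, 1 was above background on all 4 arrays, and their summed signal was 2.70 and 0.37 on the high-calcium arrays, 1.98 on the standard array and 0.22 on the array of open diet. The part of these cells in the Aqp7 values was not tested.

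**Figure D2:**
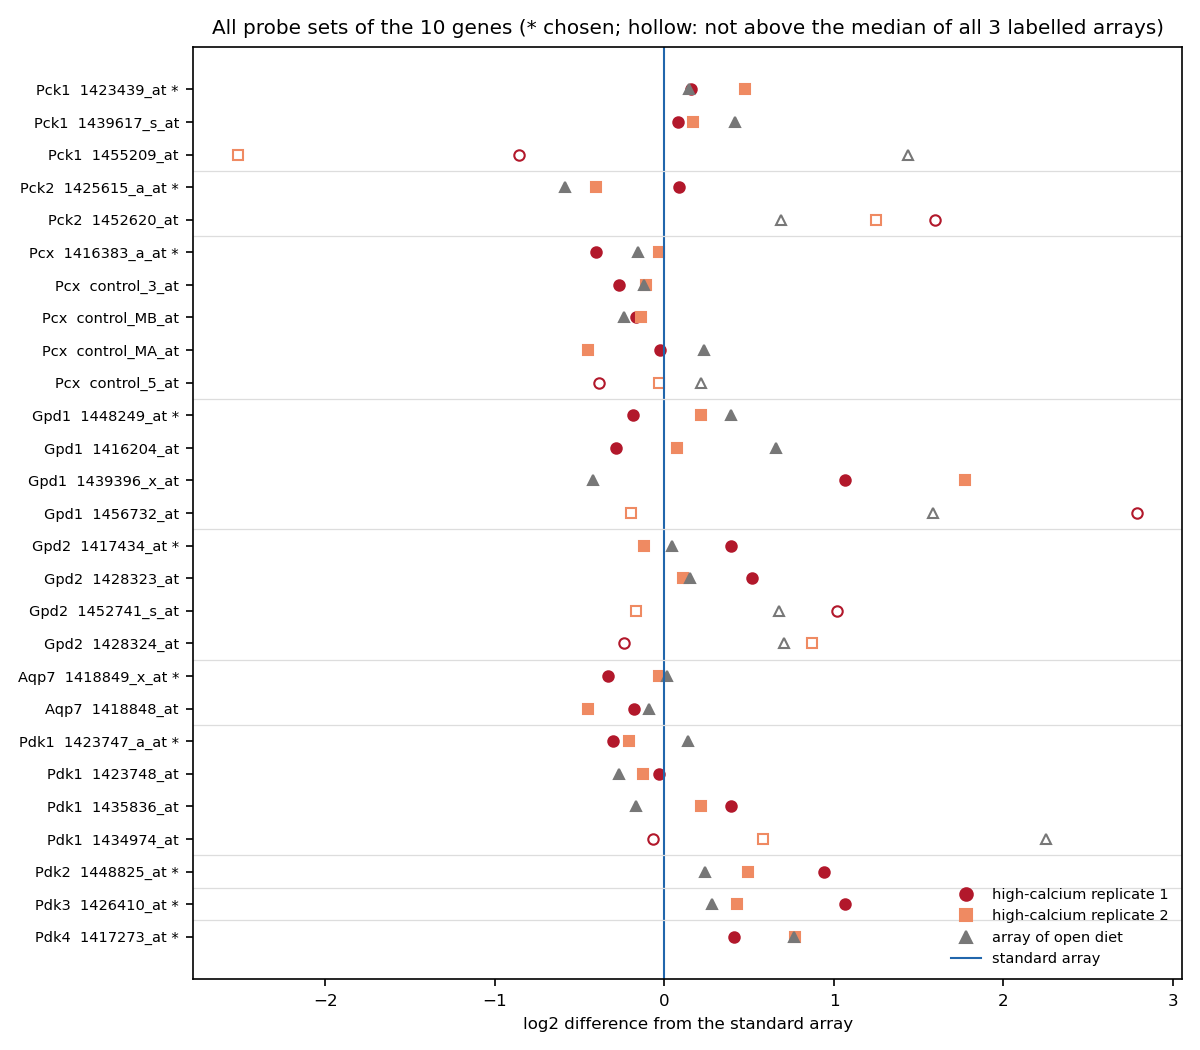
Log2 difference from the standard array (x axis, 0 at the blue line) for all 27 probe sets of the 10 genes, 1 symbol per array; an asterisk marks the probe set used for the gene and hollow symbols mark probe sets not above the median of all 3 labelled arrays. All 5 Pcx probe sets lie left of the line on both high-calcium arrays, whereas those of Pck1, Pck2, Gpd1, Gpd2 and Pdk1 fall on both sides.

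The 4 pyruvate dehydrogenase kinases phosphorylate the complex that commits pyruvate to acetyl-CoA and thereby shut it. Pdk4, the form that fasting, fatty acids and glucocorticoids are known to raise, had log2 signals of 1.23 and 1.59 on the high-calcium arrays, 0.82 on the standard array and 1.58 on the array of open diet. The standard array was the lowest by a clear step, and replicate 2 and the array of open diet were level. The difference was 0.59 (SE 0.38, 95% interval -0.81 to 1.99), or 1.33-fold on replicate 1 and 1.70-fold on replicate 2, with 1.70-fold on the array of open diet. All of these differences rest on 1 standard array. If the array of open diet were a standard array too, the levels on the standard diet, 0.82 and 1.58, would overlap those on the high-calcium diet. The gap between the high-calcium arrays was 0.36, smaller than either of the differences from the standard array. When limma was run robustly with a trend of variance on level, Pdk4 had an unadjusted p of 0.015 and an adjusted p of 0.9998. Centred on array medians, Pdk4 lay at -0.22 on replicate 1 and 0.76 on replicate 2. Pdk4 has 1 probe set on the array, so no second probe set bears on it.

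The promoter of Pdk4 is given from the same source, at chr6:5496279-5496528 on the minus strand, 5′ to 3′. Capitals mark the 1 match found, to the CCAAT box read on the opposite strand, at bases 131 to 127 before the start.

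Pdk4: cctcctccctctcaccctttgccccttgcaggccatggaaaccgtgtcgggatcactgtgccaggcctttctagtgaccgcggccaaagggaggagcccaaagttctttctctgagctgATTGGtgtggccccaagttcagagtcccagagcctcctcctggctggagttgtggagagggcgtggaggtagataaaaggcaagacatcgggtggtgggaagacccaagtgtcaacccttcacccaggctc

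CCAAT stands in 33.8% of all windows and among the 10 genes in those of Pck2, Pcx, Pdk2, Pdk3 and Pdk4. Pck1 and Pdk4 shared 0 of the searched motifs in these windows.

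Pdk2, the most widely expressed kinase of the family, had log2 signals of -1.09 and -1.54 on the high-calcium arrays, -2.03 on the standard array and -1.79 on the array of open diet. The standard array was lowest and the high-calcium arrays highest. The difference was 0.72 (SE 0.41, 95% interval -0.79 to 2.22), or 1.92-fold on replicate 1 and 1.40-fold on replicate 2. Pdk3, best known from testis and brain, followed the same order, at -1.30 and -1.93 on the high-calcium arrays, -2.36 on the standard array and -2.08 on the array of open diet. Its difference was the widest of the 10, at 0.75 (SE 0.48, 95% interval -1.03 to 2.52), or 2.09-fold on replicate 1 and 1.35-fold on replicate 2. The spread between the high-calcium arrays was 0.32 for Pdk2 and 0.45 for Pdk3 (SD, n = 2 each). Both genes were highest on replicate 1, the array with the highest summed signals of smooth muscle, B-cell and germ cell markers. Of the 5 mesothelium markers 4 were also lowest on the standard array: Msln, Upk1b, Upk3b and Wt1 were higher on both high-calcium arrays, and the median of the 5 markers lay 1.32 above the standard array on replicate 1, 0.54 on replicate 2 and 0.84 on the array of open diet. On replicate 2 the differences were 0.49 for Pdk2 and 0.43 for Pdk3. Smooth muscle and germ cell markers were lower in summed signal there than on the standard array, and mesothelium markers were higher. The part of any of these cells in the Pdk2 and Pdk3 values was not tested. Of the genes above background, 96.2% had a smaller or more negative difference than Pdk2, 96.7% than Pdk3 and 93.6% than Pdk4. Over all genes, dim ones included, these shares were 81.0%, 81.7% and 77.9%. In the mean of the high-calcium arrays these 3 genes were at least 1.5-fold above the standard array, as were 22.1% of all genes and 6.47% of those above background. At 1.5-fold on both arrays there were 0 of the 10 higher, against 12.7% of all genes and 2.21% of those above background, and 0 lower, against 4.49% and 1.1%.

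Pdk1, the kinase that hypoxia is known to raise, lay on the other side of the standard array, at -0.74 and -0.64 on the high-calcium arrays against -0.43, with -0.30 on the array of open diet. The high-calcium arrays were lowest and nearly level, with the smallest spread of the 10 genes, 0.066 (SD, n = 2). The difference was -0.26 (SE 0.32, 95% interval -1.45 to 0.94). A second Pdk1 probe set lay at -0.034 and -0.12, and the third, also above background, lay above the standard array, at 0.39 and 0.21. The fourth, under background on all 4 arrays, lay at -0.066 and 0.58. The Pdk1 probe sets therefore gave no common direction. In the difference of 2 genes on an array, a single scaling factor per array cancels, but a scaling that depends on the level does not, and which was used is not known. Relative to Pdk1, Pdk4 was shifted from the standard array by 0.71 on replicate 1, 0.98 on replicate 2 and 0.63 on the array of open diet. Pdk2 relative to Pdk1 was shifted by 1.24, 0.70 and 0.10 on these arrays, and Pdk3 relative to Pdk1 by 1.37, 0.64 and 0.14. These shifts use the chosen Pdk1 probe set, which the third one does not match. Pdk4 relative to Pcx was shifted by 0.81, 0.80 and 0.92, and Pck1 relative to Pcx by 0.56, 0.51 and 0.30. Each of the 2 shifts against Pcx was nearly the same in size on both high-calcium arrays. Pck1, Pdk4 and Pcx were themselves lower on replicate 1 than on replicate 2, by 0.32, 0.36 and 0.37. Subtracting Pcx removes this shared gap, so the likeness of the arrays is no separate measure of repeatability. After quantile normalization the shifts on replicates 1 and 2 were 0.80 and 0.97 for Pdk4 relative to Pdk1, 0.80 and 0.79 for Pdk4 relative to Pcx, and 0.56 and 0.50 for Pck1 relative to Pcx. These ratios were formed after the values had been seen and were not tested.

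**Figure D3:**
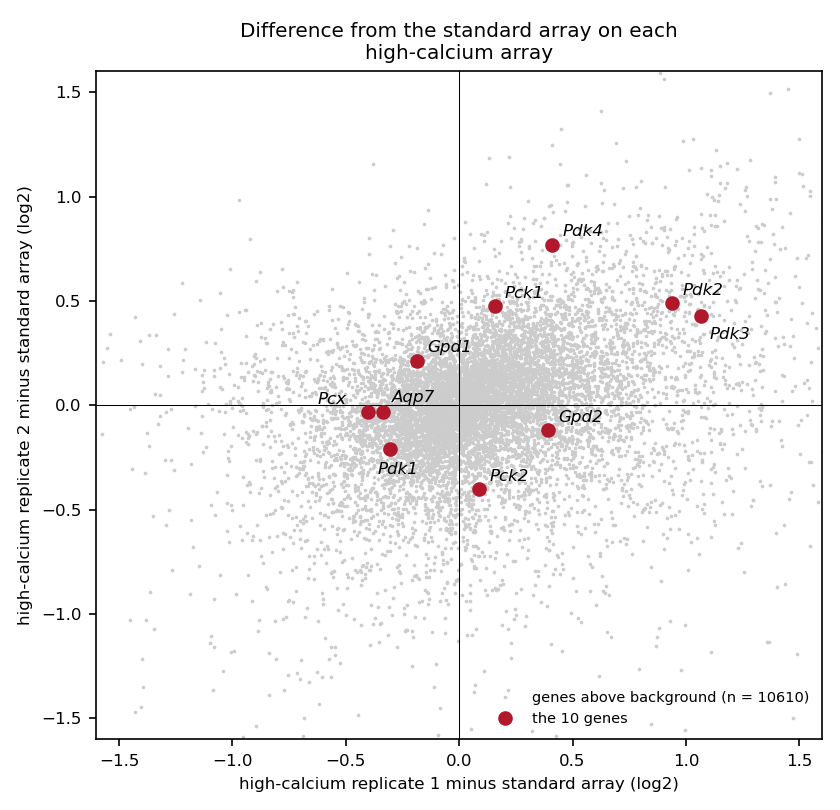
Log2 difference from the standard array on high-calcium replicate 1 (x axis) and replicate 2 (y axis) for the 10 genes in red and for the 10610 genes above background in grey; 159 of the grey genes lie beyond the axes. Pdk2, Pdk3 and Pdk4 sit at the upper right edge of the grey cloud and Pck1 within it, and the standard array is shared by both axes.

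How far these values depend on the scale of the arrays was followed gene by gene. Gapdh, a glycolytic gene often used as a reference, had log2 signals of 4.33 and 4.32 on the high-calcium arrays and 4.33 on both others, so values relative to Gapdh would be almost those given here. After quantile normalization Pck1, Pdk2, Pdk3 and Pdk4 were still above the standard array on both high-calcium arrays, at 0.34, 0.68, 0.70 and 0.61. With each array centred on its adipocyte markers, a setting chosen after the data had been seen, these 4 genes were also above it on both arrays, at 0.24, 0.64, 0.67 and 0.52. Of these 3 scalings, centring on the array medians, which moved the median of all genes to -0.24, left 2 of the 4, Pdk2 and Pdk3, above it on both arrays, at 0.40 and 0.43. Under that centring replicate 1 is shifted down the most, since its median signal, set by dim probe sets, is the highest of the 4.

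**Figure D4:**
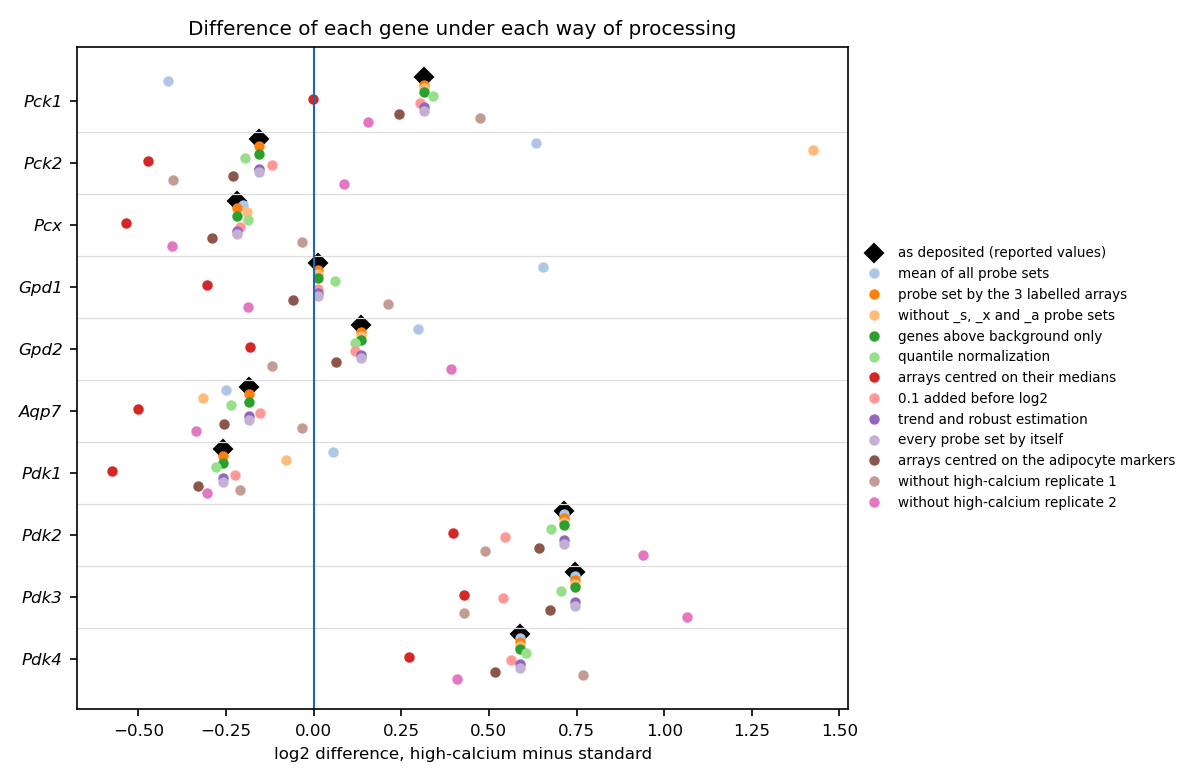
Log2 difference between high-calcium and standard arrays (x axis) for each gene under the reported processing (black diamonds) and each alternative (coloured dots, offset vertically). Pdk2, Pdk3 and Pdk4 stay right of 0 and Pcx and Aqp7 left of it in every setting drawn, while Pck1, Pck2, Gpd1, Gpd2 and Pdk1 cross.

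The other genes of the pathway were followed in 6 lists with 64 measured genes in all, of which 52 were above background. limma called 0 of them higher and 0 lower after adjustment over all genes. At an unadjusted p under 0.05 there were 3, Slc16a3, Tkfc and Fbp1, which is 4.69% of the 64, against 4.94% of all genes. The first 2 were picked after their values were seen, and both were under background on the standard array and both high-calcium arrays.

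The pyruvate dehydrogenase complex, the target of the kinases, had 6 of 8 measured genes below the standard array on both high-calcium arrays and 1 above it, against 23.9% of all genes below and 38.6% above. The median log2 difference was -0.13, against 0.079 over all genes. Dlat, its acetyltransferase core, had log2 signals of 0.80 and 1.07 on the high-calcium arrays, 1.44 on the standard array and 1.55 on the array of open diet, a difference of -0.51 (SE 0.35). Dld, its dihydrolipoamide dehydrogenase, had 1.07, 1.38, 1.66 and 1.82 on the same arrays, a difference of -0.44 (SE 0.36). For both genes the array of open diet was above the standard array, by 0.11 and 0.16. Pdha1, the catalytic subunit that the kinases phosphorylate, was level on all arrays, from 2.02 to 2.04. The one gene above the standard array on both was Pdp2, a phosphatase that reverses the kinases, named after its value was seen; it was under background on the standard array, at -4.39, and lay at -3.22 and -3.41 on the high-calcium arrays.

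Glycerol handling had 5 of 7 measured genes above the standard array on both arrays and 0 below it, against 38.6% and 23.9% of all genes, with a median difference of 0.47 against 0.079 over all genes. Replicate 1 held most of it, with a median of 1.64 against 0.13 on replicate 2. Only 4 of the 7 were above background, and over those the median was 0.38, with 0.56 and 0.27 on the 2 arrays. Aqp11, an intracellular aquaporin found in fat cells, had log2 signals of -1.72 and -2.23 on the high-calcium arrays, -3.36 on the standard array and -2.64 on the array of open diet, a 2.60-fold difference (SE 0.43 on the log2 scale). The standard array was lowest by a wide step. The Aqp11 probe set has the suffix that marks possible cross-matching, as the third Gpd1 probe set does. Gk5, a relative of glycerol kinase, had -2.45 and -2.56 against -2.97, with -2.67 on the array of open diet, a difference of 0.47 (SE 0.32). Gpd1l, a relative of Gpd1, differed by 0.15 (SE 0.32). Glycerol kinase itself had no probe set with a single gene symbol here.

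Among pyruvate and lactate genes 3 of 8 lay below the standard array on both arrays and 2 above, with a median of 0.040. Over all genes 23.9% lay below and 38.6% above. Ldhb, a lactate dehydrogenase subunit, was at 1.27 and -0.35 against 0.12, so that the 2 high-calcium arrays lay on opposite sides. Slc16a7, a monocarboxylate transporter, was at -1.16 and -1.55 against -0.85, a difference of -0.50 (SE 0.39). Mpc1, a subunit of the mitochondrial pyruvate carrier, differed by -0.10 (SE 0.32). Carbon shuttles had 6 of 14 genes below and 4 above, against the same 23.9% and 38.6% of all genes, with a median of -0.077. Me2, the mitochondrial malic enzyme, was at -1.70 and -1.75 against -2.30, a difference of 0.58 (SE 0.32), and Slc25a1, the mitochondrial citrate carrier, at 1.51 and 1.71 against 1.99, a difference of -0.38 (SE 0.34).

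Of the triose and hexose steps 5 of 11 genes lay below on both arrays and 1 above, with a median of -0.0087. Over all genes these shares were 23.9% and 38.6%. Fbp1, the gluconeogenic fructose-1,6-bisphosphatase, had the largest difference of any gene in the lists above background, with log2 signals of -3.19 and -3.72 on the high-calcium arrays, -0.15 on the standard array and -3.66 on the array of open diet. The standard array alone was high. The duct epithelium markers Adgrg2 and Calml4, chosen after their values were seen, were also highest there, with 0.61 and 0.77 on the standard array and at most -1.37 on the other 3. Of the 7 duct markers 6 were above background on all 4 arrays, and 4 of the 7 were highest on replicate 1 instead, where Fbp1 was at -3.19. The part of duct tissue in the Fbp1 value was not tested. Fbp2, the muscle form, was at -2.20 and -2.81 against -1.84, a difference of -0.66 (SE 0.47). Among the 10 genes the widest gap from the standard array, that of Pdk3 on replicate 1, was 1.07. The part of duct tissue in the values of the 10 genes was not tested either.

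Regulators known to act on Pck1 and Pdk4 were lower on both arrays for 8 of 16 genes and higher for 2, with a median of -0.12. Over all genes 23.9% were lower on both and 38.6% higher, with a median of 0.079. Hif1a, the hypoxia-inducible factor, was at 2.17 and 2.05 against 2.35, a difference of -0.23 (SE 0.32), and Ppargc1a, a coactivator of mitochondrial genes, was at -2.94 and -3.45 against -2.90, a difference of -0.30 (SE 0.43). Pparg, the fat cell regulator that binds Pck1, differed by -0.19 (SE 0.33), Nr3c1, the glucocorticoid receptor, by -0.12 (SE 0.32) and Foxo1 by -0.13 (SE 0.32). The 2 that were higher on both arrays were Crtc2, by 0.66 and 0.43, and Ppara, by 0.0013 and 0.28. Neither was above background on all 3 labelled arrays. Of the 13 regulators above background, 0 were higher on both high-calcium arrays. RNA level does not measure the activity of a regulator, and the part of any of them in the Pck1 and Pdk4 values was not tested.

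**Figure D5:**
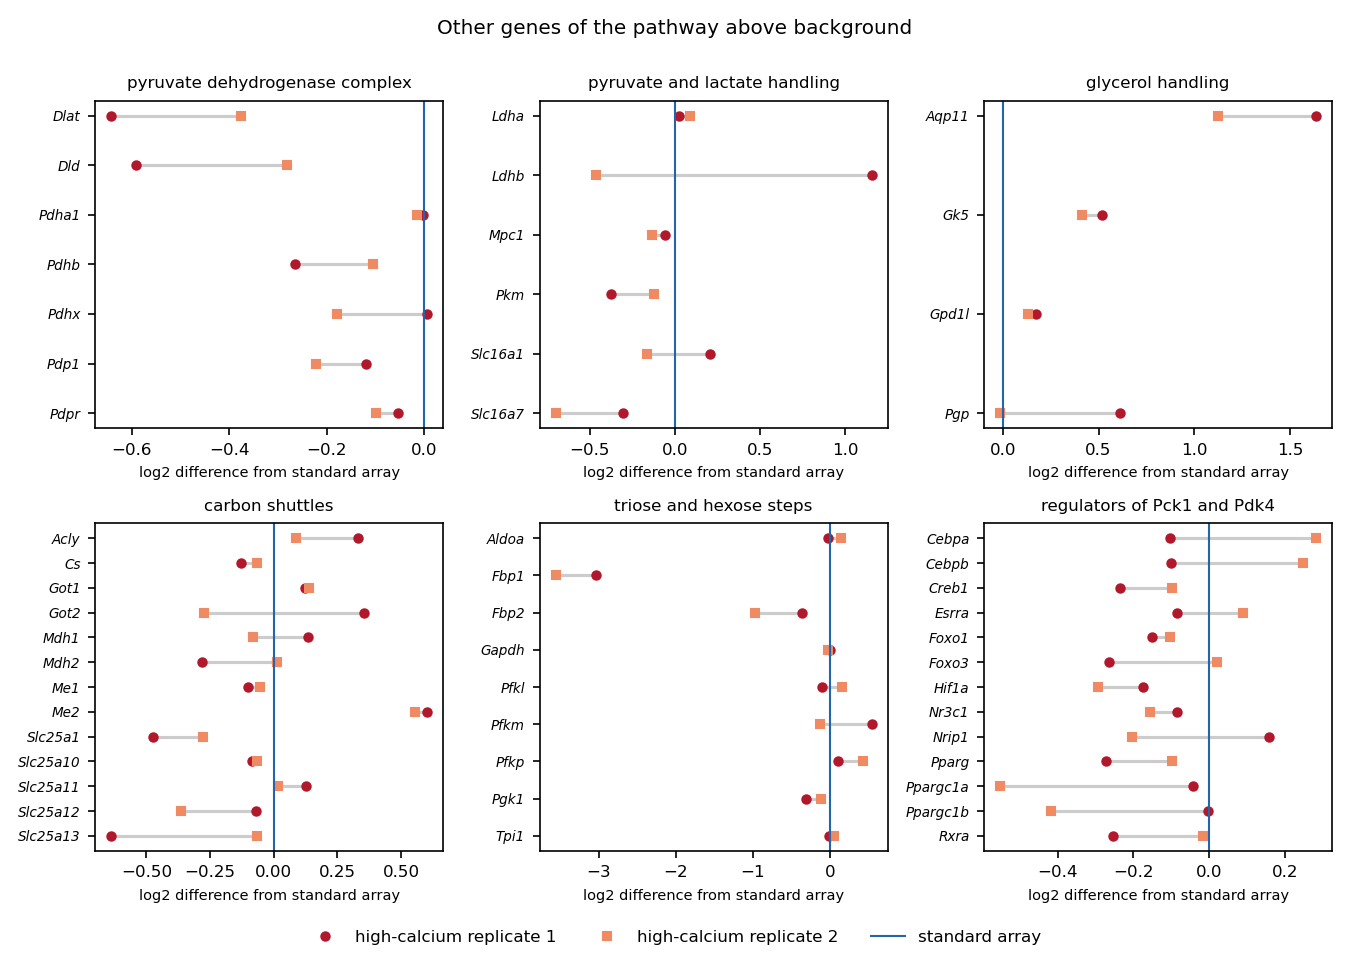
Log2 difference from the standard array (x axis, 0 at the blue line; scales differ between panels) on high-calcium replicate 1 (circles) and replicate 2 (squares) for the 52 pathway genes above background, by list. Dlat and Dld lie left of the line and Aqp11 and Gk5 right of it on both arrays, and Fbp1 lies beyond -3 on both.

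The genes whose pattern over the 4 arrays was most like that of Pck1, by Euclidean distance between log2 signals centred on the mean of each gene, were Ercc3 (distance 0.0062), Uhrf2, Vps33a, Numbl and Bst1 (up to 0.050) among 10205 candidates above background on all 4 arrays. For Pdk3, the gene with the widest range over the arrays, they were Gid4 (0.037), Celsr2, Ifitm6, Gstm1 and Timp4 (up to 0.091). With 4 arrays and differences of this size many genes share an order, and none of the other 9 genes was among either 5.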

How the data were processed

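One-colour Affymetrix arrays, 4 in all, measured total RNA from epididymal fat. The deposited values are linear intensity values, 1 per probe set and array. The submitters' processing notes name RMA, with no version, but the intensities are not log2 values and on each array the floor lies at the median over 100; no source used here gives the scaling step. The number of arrays limits the precision. The p-values rest on the spread between the 2 high-calcium arrays, moderated by limma toward a spread pooled over all genes. The single standard array adds no spread of its own. The labels do not tie the arrays to animals one by one.

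Intensities were log2 transformed with nothing added. Of 45101 probe sets 34958 had 1 gene symbol, 932 several and 9211 none, and 34754 matched a current gene record. The 2 high-calcium arrays were compared with the standard array with limma 3.58.1 (lmFit, eBayes; R 4.3.3) over 18194 genes, two-sided, with Benjamini-Hochberg adjustment at 0.05 and 2.38 degrees of freedom after moderation. The procedure was tested on simulated data in which all genes had the same spread. The genes here do not, so that test gives no rate of missed or false calls for these data. The 10 genes and the lists were chosen with earlier results of these data known. Named pathway genes were the 2 of each list with the largest differences above background, and others are named as examples chosen after their values were seen. Among the listed pathway and marker genes, Mpc2, Gk, Gyk, Eno1, Plin1, Cfd and Serpina1a had no probe set with 1 symbol. Brown fat, skeletal muscle and liver markers had summed signals of 1.21 to 2.38, 0.62 to 2.04 and 0.14 to 0.53. Promoter windows were from RefSeq, GRCm38.p6. Figures were drawn with matplotlib 3.10.9.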

Additional observations from a re-analysis of the deposited data

Results flagged for a closer look

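The array of open diet, which enters no comparison, had 3 probe sets of these genes above its own median and at least 1.5-fold above the standard array, the only array labelled as control. The Pdk4 probe set was 0.76 log2 units above it, the second Gpd1 probe set 0.66 and the third Gpd2 probe set 0.67. That Gpd2 probe set was above background on no other array.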

How the results depend on the processing

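Of 120 recalculations of single genes, 109 kept the direction and 11 reversed it. The 109 include settings that left every difference exactly as reported and so do not bear on direction. These were probe sets chosen by the 3 labelled arrays, genes above background only, trend and robust estimation, and every probe set by itself. Pdk2, Pdk3 and Pdk4 have 1 probe set each, so the mean of probe sets and the omission of suffixes could not change them. No gene passed an adjusted p of 0.05 in any setting with a test (lowest adjusted p 0.995). The mean of all probe sets reversed Pck1 (-0.42), Pck2 (0.63) and Pdk1 (0.056); leaving out probe sets with the suffixes _s, _x and _a reversed Pck2 (1.42). Centring on array medians reversed Pck1 (-0.0011), Gpd1 (-0.30) and Gpd2 (-0.18), and centring on adipocyte markers, chosen after seeing the data, Gpd1 (-0.059). Leaving out high-calcium replicate 1 reversed Gpd2 (-0.12 to 0.39 over both omissions), and leaving out replicate 2 reversed Pck2 (-0.40 to 0.087) and Gpd1 (-0.19 to 0.21); with 1 array per diet these are values with no test. The median over the 10 genes, 0.074 as reported, was 0.44 with the mean of probe sets, 0.23 without the suffixes, -0.24 on median-centred arrays and 0.0021 on adipocyte-centred ones, and 0.090 to 0.12 with 1 high-calcium array left out. The median over all genes, 0.079 as reported, was 0.14, 0.10, -0.24 and 0.0068 in the first 4 of these settings. It was 0.013 without replicate 1 and 0.19 without replicate 2. The count of genes called over the whole table was 0 as reported, 96 (61 higher, 35 lower) on median-centred arrays and 6, all lower, with trend and robust estimation, and 0 of the 10 genes were among them. The cause of these shifts was not tested. No paired analysis was possible because the labels give the standard array no replicate number shared with the high-calcium arrays.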
